A study of Danio rerio with 12 samples.

Results

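The immediate early and AP-1 genes are those that cells switch on within minutes to hours of activity, growth signals or stress. The set described was chosen by name and not by a rule on its values. Earlier results of these data were known at that time. It started from 48 listed zebrafish symbols, of which 30 matched a gene in the count table exactly (ignoring case) and 17 matched after the paralog letter was dropped, and it held 47 of the 31953 genes in the table. The activity gene arc was not analysed here. The table writes several fish genes with capital symbols, so FOS stands for the listed fosab, FOSL1 for fosl1a, EGR2 for egr2b and KLF6 for klf6a. JUNB, MYC, NPAS4, NR4A2, SRF and ZFP36L1 are each carried by 2 genes under 1 symbol, which are told apart here by their Ensembl gene identifiers. JUND stands for both the listed junda and jundb, while the listed srfa matched both SRF genes. Positions are those of the deposited table, and the submitters' processing notes name GRCz10, which is also listed as danRer10.

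All fish carried Tg(her4.1:EGFP), in which the promoter of her4.1, a Notch target gene of radial glia, drives a green fluorescent protein, and all were 6 months old. Each brain received a cerebroventricular injection, either of AB42, the amyloid-β42 peptide (TR-Aβ42 in the labels' protocol), or of CPP, the control peptide, and was dissected 48 hours later, dissociated with enzymes and sorted for GFP. The 4 groups of 3 libraries each were AB42 GFP-positive, CPP GFP-positive, AB42 GFP-negative and CPP GFP-negative cells. All groups therefore shared the transgene, an injection, the dissociation and the sort, and no uninjected fish or unsorted brain was among them. The GFP-positive gate was set by the her4.1 transgene, and the GFP-negative fraction was the cells sorted as negative, whatever their type. Marker genes of several cell types were counted in both fractions. The labels speak of triplicates without saying whether the libraries came from separate fish, so the p-values measure the spread between these libraries, which may be technical.

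AP-1 is a dimer of a FOS-family and a JUN-family bZIP protein, and the ATF and small Maf proteins are partners of the same kind. Calcium and MAP kinase signals act on factors already in the cell, such as SRF and CREB, which then switch on FOS, EGR, NR4A and NPAS4 genes without new protein synthesis. The same signals switch on their own brakes, including the DUSP phosphatases and the ZFP36 proteins that mark unstable mRNAs for decay. In the brain these genes are widely used as markers of neuronal activity, and they are also switched on by tissue injury and by enzymatic dissociation.

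Total counts ran between 9262838 and 15584769 per library, so that 3 counts, the floor used here for detection, stood for 0.164 to 0.326 CPM (counts scaled to library size with TMM, the trimmed mean of M-values). These limits cover counting error only. Libraries parted first by sorted fraction, along a component with 83% of the variance. A list of 12 radial glia genes summed to 37265 to 39812 CPM in AB42 GFP-positive, 44019 to 47217 CPM in CPP GFP-positive, 2399.9 to 2435 CPM in AB42 GFP-negative and 2193 to 2313 CPM in CPP GFP-negative libraries. Not every radial glia gene was lower after AB42 in GFP-positive cells. By the test described with the first comparison below, 2 of the 11 tested rose there, 5 fell and 4 did not pass. The 2 that rose were GFAP and nes (log2 changes of 0.62 and 0.47). In GFP-positive cells, 18 neuronal genes summed to 551 to 564 CPM after AB42 and 884 to 889 CPM after CPP. In GFP-negative cells the same list summed to 3879 to 4050.1 CPM after AB42 and 6094 to 6306 CPM after CPP, and 15 microglia and macrophage genes summed to 8521 to 9027 CPM after AB42 and 2885 to 3150.3 CPM after CPP. No gene of these 3 lists was at 0 in any group. After CPP, 10 oligodendrocyte-lineage genes summed to 5816 to 6230 CPM in GFP-positive and 14144 to 15422 CPM in GFP-negative libraries. After AB42 they summed to 4271 to 4691 CPM in GFP-positive and 18021 to 18689 CPM in GFP-negative libraries. Whether such counts in GFP-positive libraries came from other cells in the sort was not tested. In bulk samples such as these, fewer cells of a type and less RNA per cell cannot be told apart.

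The 47 genes took 3.30 ± 0.0337% of all counts in AB42 GFP-positive, 2.88 ± 0.0331% in CPP GFP-positive, 2.13 ± 0.0463% in AB42 GFP-negative and 1.42 ± 0.131% in CPP GFP-negative libraries (SD, n = 3 each). Measured per kilobase of exon, FOS, the founding AP-1 subunit (chromosome 20, 46648591 to 46650720), was the most abundant member in GFP-positive cells, at 5025 CPM per kb after AB42 and 4661 after CPP. JUNB (ENSDARG00000104773), a JUN-family partner of FOS (chromosome 3, 7768815 to 7770219), came next there, at 3762 CPM per kb after AB42 and 3674 after CPP. In GFP-negative cells after AB42 that JUNB copy and the zinc-finger factor egr4 (chromosome 23, 45844302 to 45846431) were level at the top, at 1822.89 and 1821.87 CPM per kb. After CPP the group means were 1047 CPM per kb for that JUNB copy and 958 for egr4. That order depends on the low egr4 value of CPP GFP-negative replicate 1, as its libraries disagree (described with its values). At the other end, NR4A2 (ENSDARG00000017007) had 0 counts over the 3 AB42 GFP-positive libraries and 4 over the CPP GFP-positive ones. The copy SRF (ENSDARG00000102867) had 16 counts over all 12 libraries and was the only member under the filter on low counts, which left 46 members tested. FOS shares 455 exonic bases with an unnamed gene on the opposite strand, NR4A3 197 with si:ch211-69i3.3 and ier2b 23 with stx10. The sources used here do not state whether the counting used strand, so reads of these pairs may be mixed.

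**Figure D1:**
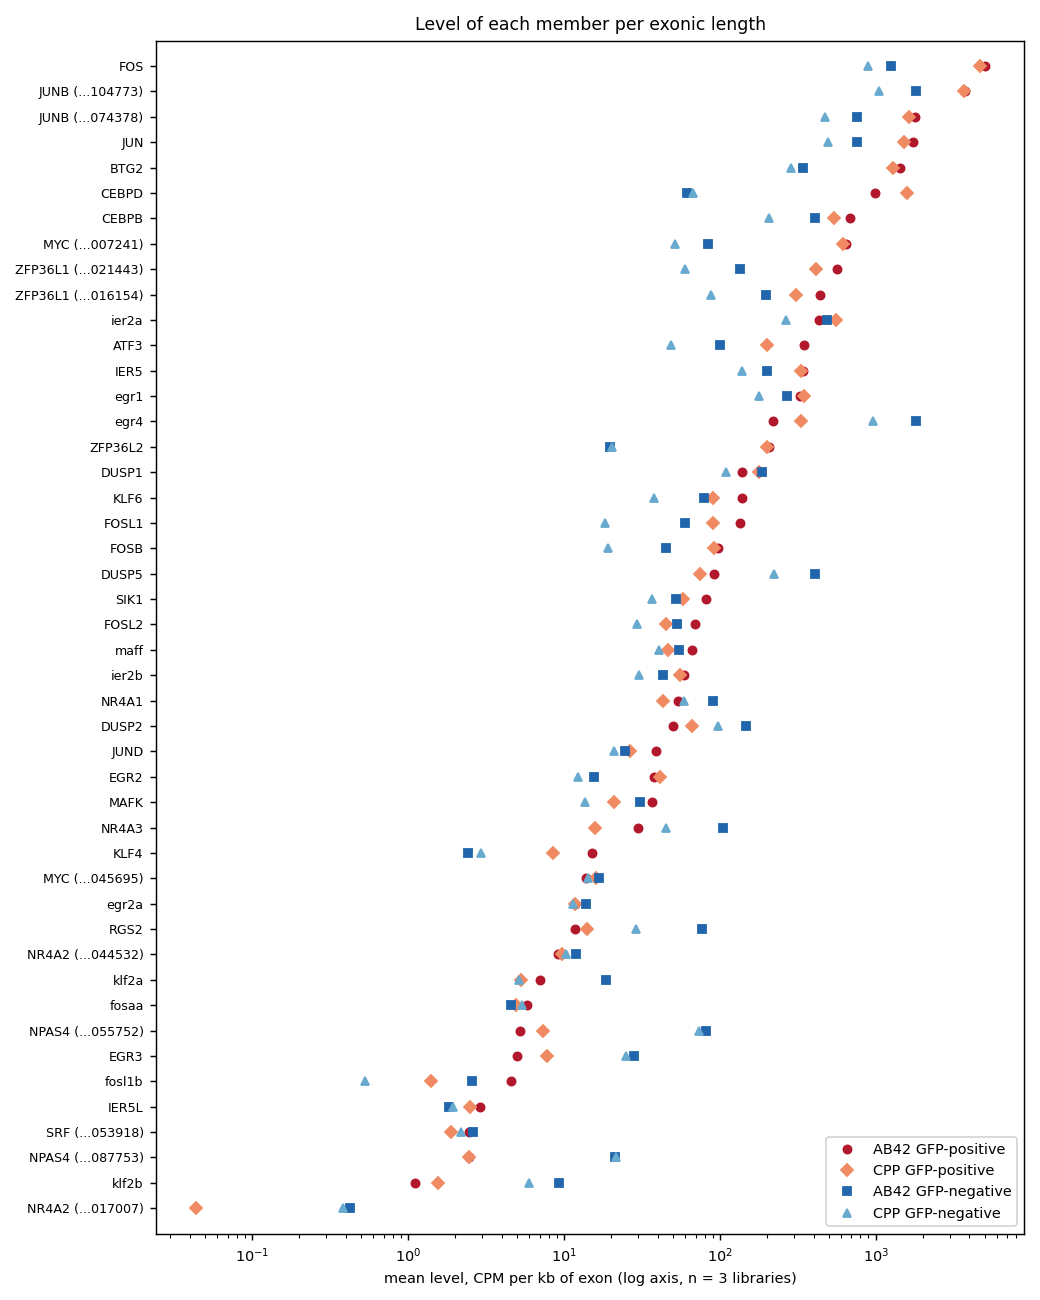
Mean level of 46 members in each group, in CPM per kb of exon on a log axis (means of n = 3 libraries, one symbol per group, members ordered by AB42 GFP-positive level). FOS and the JUNB copies sit at the top in GFP-positive cells, and egr4, DUSP5, the NPAS4 copies, RGS2 and NR4A3 have their GFP-negative symbols to the right of the GFP-positive ones. NR4A2 (ENSDARG00000017007) has no AB42 GFP-positive symbol because all its counts there were 0, and SRF (ENSDARG00000102867) is left out.

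The first comparison asked what AB42 did to these genes in the her4.1 reporter cells. In GFP-positive cells, 20 of 46 members rose after AB42, 6 fell and 20 did not pass an adjusted p of 0.05 by edgeR's quasi-likelihood test with Benjamini-Hochberg adjustment. Of all 20237 genes tested, 18.7% passed in either direction, 6.21% higher and 12.5% lower. Scaled by library totals alone, the shares of all genes were 10.4% higher and 8.74% lower, and 24 members rose and 6 fell. The members' median log2 change was 0.12 with the NR4A2 copy at the floor set aside, beside -0.06 over all genes. Of the rises, 9 were among 13 AP-1 and small Maf genes (0 lower), 3 among 4 KLF genes, 3 among 4 RNA-decay and BTG genes, 2 among 6 NR4A and NPAS4 genes (1 lower), 2 among 5 feedback genes (2 lower) and 1 among 5 C/EBP, MYC and SRF genes (1 lower). The EGR group had 0 of 5 higher and 1 lower, and the IER group 0 of 4 higher and 1 lower. Marker lists of other cell types moved in the same comparison: 13 of 18 neuronal genes, 6 of 10 oligodendrocyte-lineage genes and 6 of 10 keratin epithelium genes were lower (3 keratin epithelium genes higher). The 10 keratin epithelium genes summed to 476 to 514 CPM after AB42 and 471 to 493 CPM after CPP, and the 10 oligodendrocyte-lineage genes to 4271 to 4691 CPM after AB42 and 5816 to 6230 CPM after CPP. Their part in these results was not tested. Every AB42 library lay above every CPP library for 22 members and below for 11, as it did for 12.3% and 19.7% of all genes tested. A rise of at least 2-fold was measured for 1 member, fosl1b, where 4.28% of all genes passed with at least a 2-fold change in either direction. Changes below are log2 fold changes of AB42 over CPP with their SE, and a p in brackets is the adjusted p.

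NR4A3, an orphan nuclear receptor, had 114, 116 and 109.9 CPM in AB42 libraries, against 62.7, 61.3 and 53.8 CPM in CPP libraries. KLF4, a zinc-finger factor of growth arrest and pluripotency, had 30.3, 29.0 and 23.6 CPM in AB42 libraries, against 17.4, 15.7 and 13.1 CPM in CPP libraries. For both genes every AB42 library was above every CPP library. ATF3, a bZIP factor of the stress response, had 907, 896 and 998 CPM in AB42 libraries, against 519.7, 543 and 563 CPM in CPP libraries. MAFK, a small Maf protein without its own activation domain, had 52.9, 50.6 and 45.2 CPM in AB42 libraries, against 29.9, 27.2 and 27.3 CPM in CPP libraries. These groups did not overlap either. The log2 changes were 0.93 ± 0.065 for NR4A3 (SE, adjusted p 1.05e-13), 0.85 ± 0.14 for KLF4 (1.1e-05), 0.78 ± 0.059 for ATF3 (5.82e-13) and 0.82 ± 0.094 for MAFK (1.99e-08).

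Within AP-1 the rise was uneven. FOSL2, a FOS-related subunit, had 401, 408 and 422 CPM in AB42 libraries, against 258, 268 and 273 CPM in CPP libraries. FOSL1, which has no activation domain of its own and dimerizes with JUN proteins, had 250.4, 266 and 258 CPM in AB42 libraries, against 179, 178 and 165 CPM in CPP libraries. The groups were apart for both, with log2 changes of 0.62 ± 0.053 (adjusted p 1.89e-11) and 0.57 ± 0.063 (8.36e-09). JUND, the JUN subunit usually held at a steady level, rose by 0.56 ± 0.074 (3.7e-07) and the small Maf gene maff by 0.52 ± 0.08 (5.45e-06). By contrast the 4 most abundant subunits per kilobase, FOS, both JUNB copies and JUN, moved less. FOS had 8314, 8323 and 8974 CPM in AB42 libraries, against 7789, 7719 and 8248 CPM in CPP libraries. The AB42 libraries were above the CPP libraries by a narrow margin, and the log2 change of 0.11 ± 0.041 did not pass (adjusted p 0.0625, with 3.24e-06 to 0.261 over 18 alternative fits). FOS passed as higher in 8 of those fits, among them library totals (3.24e-06), the replicate block (0.000596) and only the 6 libraries compared (0.00441). JUNB (ENSDARG00000104773) had 5363, 5198 and 5295 CPM in AB42 libraries, against 5143, 5136 and 5208 CPM in CPP libraries, a log2 change of 0.03 ± 0.039 (adjusted p 0.619, and 0.00265 with library totals alone). JUN itself rose by 0.18 ± 0.042 (0.00184), with 3488, 3230.0 and 3387 CPM in AB42 libraries, against 2988, 2897 and 3048 CPM in CPP libraries. JUNB (ENSDARG00000074378) passed narrowly, at 0.12 ± 0.044 (0.0417), and its call was lost with a looser filter and in 6 of the 12 fits that left out a library: each GFP-positive library but CPP replicate 3, and AB42 GFP-negative replicate 1 (adjusted p up to 0.13). FOSB, at 0.08 ± 0.087 (0.608), had overlapping libraries, with 268, 241 and 235 CPM in AB42 libraries, against 216, 276 and 212 CPM in CPP libraries. The low-level paralog fosl1b rose by 1.70 ± 0.31 (7.83e-05), at 4.24 ± 0.384 CPM after AB42 and 1.31 ± 0.588 CPM after CPP (SD, n = 3 each). Summed over 6 genes, the FOS family stood at 9465 ± 376 CPM after AB42 and 8601 ± 264 CPM after CPP, and the 4 JUN genes at 11690.2 ± 257 CPM after AB42 and 10869 ± 166 CPM after CPP (SD, n = 3 each).

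The fall was led by CEBPD, a C/EBP factor of the acute phase response (chromosome 24, 35676571 to 35677830), with 1278, 1183 and 1264 CPM in AB42 libraries, against 1989.5, 1928 and 2051 CPM in CPP libraries. EGR3, an early zinc-finger factor, had 19.2, 14.9 and 15.2 CPM in AB42 libraries, against 26.6, 28.0 and 21.7 CPM in CPP libraries. NPAS4 (ENSDARG00000055752), the neuronal activity factor, had 24.9, 24.9 and 24.4 CPM in AB42 libraries, against 33.7, 38.1 and 33.5 CPM in CPP libraries. Every AB42 library was below every CPP library for these 3 genes, and the log2 changes were -0.68 ± 0.054 for CEBPD (adjusted p 3.37e-12), -0.63 ± 0.11 for EGR3 (3.3e-05) and -0.51 ± 0.081 for this NPAS4 copy (1.11e-05). Signalling brakes fell too: DUSP2 and DUSP1, both phosphatases of MAP kinases, had log2 changes of -0.41 ± 0.062 (4.62e-06) and -0.36 ± 0.055 (3.46e-06). DUSP1 had 362, 377 and 396 CPM in AB42 libraries, against 478, 509 and 474 CPM in CPP libraries. The early gene ier2a fell as well (log2 -0.34 ± 0.058, 2.37e-05), with 412, 396 and 455 CPM in AB42 libraries, against 525, 520.0 and 559 CPM in CPP libraries. For DUSP1 and ier2a the groups were apart. In the same feedback group DUSP5, a phosphatase of ERK, rose by 0.31 ± 0.062 (0.00033) and the kinase gene SIK1 by 0.51 ± 0.062 (7.56e-08).

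Among the rest, KLF6 rose by 0.61 ± 0.057 (1.59e-10), CEBPB, the other C/EBP factor, by 0.35 ± 0.052 (3.02e-06), and the mRNA-decay genes ZFP36L1 (ENSDARG00000016154) and ZFP36L1 (ENSDARG00000021443) by 0.52 ± 0.049 (2.37e-10) and 0.44 ± 0.047 (3.69e-09). NR4A1 rose by 0.32 ± 0.058 (8.81e-05), with 175, 181 and 178 CPM in AB42 libraries, against 135, 146 and 148 CPM in CPP libraries. The anti-proliferative gene BTG2, with 2901, 2939 and 3116 CPM in AB42 libraries, against 2669, 2678 and 2827 CPM in CPP libraries, passed at 0.13 ± 0.043 (0.0269), and its adjusted p ran between 2.83e-06 and 0.121 over 18 alternative fits, being lost without CPP GFP-positive replicate 1 or 2 or AB42 GFP-positive replicate 3. The vascular and quiescence factor klf2a likewise passed at 0.41 ± 0.13 (0.0206) with a range of 0.00338 to 0.102 and was lost without the same libraries. The classic marker egr1 did not pass: it had 990.0, 1037 and 1053 CPM in AB42 libraries, against 1057, 1096 and 1115 CPM in CPP libraries, which is a log2 change of -0.09 ± 0.046 (adjusted p 0.218). ier2b, at 0.07 ± 0.09 (0.636), and NPAS4 (ENSDARG00000087753), at -0.02 ± 0.16 (0.945), did not pass either.

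In GFP-negative cells, 34 of 46 members rose after AB42, 0 fell and 12 did not pass, where 20.9% of all genes tested were higher and 17.3% lower, 38.2% in all. At an unadjusted p under 0.05 the count of members lower was 1, CEBPD, a count that was not made over all genes. DESeq2 called 0 members lower, and 17.4% of all genes lower and 18.7% higher. With library totals alone, 15.8% of all genes were higher and 27.0% lower (the median of all genes was then -0.14 in place of -0.01), and 32 members rose while CEBPD and ZFP36L2 fell. The median log2 change of the members was 0.61, and 11 members rose at least 2-fold, where 7.89% of all genes tested passed with at least a 2-fold change in either direction. Every AB42 library lay above every CPP library for 37 members and below for 1, as it did for 25.2% and 22.9% of all genes tested. The rises were spread over the roles: 12 of 13 AP-1 and small Maf genes, 4 of 5 EGR genes, 3 of 4 IER genes, 5 of 5 feedback genes, 3 of 4 KLF genes, 3 of 4 RNA-decay and BTG genes, 2 of 6 NR4A and NPAS4 genes and 2 of 5 C/EBP, MYC and SRF genes rose. Beside this, all 15 microglia and macrophage genes rose, 16 of 18 neuronal genes fell, and 7 of 10 oligodendrocyte-lineage, 9 of 14 endothelial and mural and 5 of 10 keratin epithelium genes rose in the same comparison (3 keratin epithelium genes fell). Their part in the result was not tested.

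Among members at 5 CPM or more, the 2 furthest up were klf2a, with 40.2, 39.1 and 43.4 CPM in AB42 libraries, against 12.1, 10.7 and 11.1 CPM in CPP libraries, and FOSL1, with 108, 117 and 119.9 CPM in AB42 libraries, against 32.8, 37.0 and 37.0 CPM in CPP libraries. RGS2, which shortens signalling by G proteins, had 97.1, 102 and 99.9 CPM in AB42 libraries, against 39.2, 35.0 and 38.6 CPM in CPP libraries. In all 3 cases the AB42 libraries lay well above the CPP libraries, by 3.63-fold, 3.21-fold and 2.65-fold (log2 1.86 ± 0.11, 1.68 ± 0.07 and 1.41 ± 0.084, with adjusted p 4.92e-16, 7.33e-21 and 2.58e-16). The scarcer fosl1b rose by 2.20 ± 0.36 (6.18e-06), at 2.41 ± 0.464 CPM after AB42 and 0.495 ± 0.188 CPM after CPP (SD, n = 3 each). FOSB, another FOS-family subunit, had 111, 98.9 and 136 CPM in AB42 libraries, against 50.7, 52.5 and 44.7 CPM in CPP libraries. NR4A3 had 402, 394 and 392 CPM in AB42 libraries, against 169.9, 173 and 168 CPM in CPP libraries. For both genes the libraries of the groups were apart, with log2 changes of 1.23 ± 0.095 (3.52e-13) and 1.22 ± 0.059 (6.69e-19). The mRNA-decay gene ZFP36L1 (ENSDARG00000021443) had 399.8, 421 and 395 CPM in AB42 libraries, against 181, 181 and 178 CPM in CPP libraries, and ATF3 had 266, 277 and 275 CPM in AB42 libraries, against 145, 119.8 and 129 CPM in CPP libraries. Those 2 rose by 1.17 ± 0.049 (7.33e-21) and 1.06 ± 0.061 (1.01e-16). ZFP36L1 (ENSDARG00000016154), MAFK and KLF6 rose by 1.17 ± 0.05, 1.17 ± 0.096 and 1.07 ± 0.059, with adjusted p 1.81e-20, 1.52e-12 and 2.05e-17.

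The abundant subunits rose less but without overlap. FOS had 2126, 2070.2 and 2199 CPM in AB42 libraries, against 1536, 1429.9 and 1578 CPM in CPP libraries. JUNB (ENSDARG00000104773) had 2572, 2449.8 and 2661 CPM in AB42 libraries, against 1489, 1413 and 1511 CPM in CPP libraries. JUN had 1462, 1458 and 1508 CPM in AB42 libraries, against 989, 949 and 940.1 CPM in CPP libraries. Their log2 changes were 0.49 ± 0.042 (2.9e-12), 0.80 ± 0.04 (1.24e-18) and 0.62 ± 0.042 (9.26e-15), and that of JUNB (ENSDARG00000074378) was 0.69 ± 0.044 (2.04e-15). Summed, the FOS family stood at 2683 ± 86.6 CPM after AB42 and 1781 ± 75.2 CPM after CPP, and the JUN family at 5379.8 ± 176 CPM after AB42 and 3299 ± 63.9 CPM after CPP (SD, n = 3 each). egr1 had 832, 844 and 876 CPM in AB42 libraries, against 549, 565 and 569.8 CPM in CPP libraries, a rise of 0.60 ± 0.047 (4.01e-13). DUSP1 had 486, 509 and 524 CPM in AB42 libraries, against 313, 283 and 298 CPM in CPP libraries, and ier2a had 461, 454 and 493 CPM in AB42 libraries, against 264, 241 and 271 CPM in CPP libraries. Both rose, by 0.77 ± 0.055 (3.76e-14) and 0.86 ± 0.058 (9.37e-15). NR4A1 rose by 0.62 ± 0.056 (1.93e-11), ier2b by 0.51 ± 0.093 (3.07e-05) and BTG2 by 0.25 ± 0.043 (1.23e-05). The calls for JUND (0.24 ± 0.074, 0.00992) and egr2a (0.28 ± 0.099, 0.0212) were each lost in 3 of the 12 fits that left out a library, JUND without CPP replicate 1 or 3 or AB42 replicate 2 (adjusted p up to 0.159) and egr2a without CPP replicate 2 or AB42 replicate 2 or 3 (up to 0.147). Both calls were also lost with library totals alone (0.10, adjusted p 0.311, for JUND and 0.15, 0.212, for egr2a).

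The copies of the neuronal activity factor NPAS4 did not pass with all libraries. NPAS4 (ENSDARG00000055752) had 383, 384 and 386 CPM in AB42 libraries, against 323, 379 and 339 CPM in CPP libraries, a log2 change of 0.15 ± 0.06 (adjusted p 0.0505), and NPAS4 (ENSDARG00000087753) had 65.7, 67.1 and 76.7 CPM in AB42 libraries, against 76.8, 72.3 and 64.5 CPM in CPP libraries, a change of -0.03 ± 0.097 (0.867). The first copy's AB42 libraries were above its CPP libraries, and the second copy's overlapped. The first copy passed in 7 of the 18 alternative fits that use each gene's own spread, among them the replicate block (0.00717), only the 6 libraries compared (0.0356) and without CPP GFP-negative replicate 2 (0.014), CPP GFP-positive replicate 2 (0.0413) or 3 (0.0435) or AB42 GFP-positive replicate 3 (0.0449), and its adjusted p reached 0.883 at most. The other members that did not pass were CEBPD, EGR3, fosaa, IER5L, KLF4, ZFP36L2, MYC (ENSDARG00000045695), SRF (ENSDARG00000053918) and both NR4A2 copies. Their log2 changes lay between -0.27 for KLF4 and 0.28 for the SRF copy.

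One library decided the value of egr4, an activity-induced EGR factor. In GFP-negative cells egr4 had 3687, 3175 and 3817 CPM in AB42 libraries, against 505, 2551 and 2559 CPM in CPP libraries. The first CPP library thus stood at 19.8% of the mean of the other two, from 5572 counts where they had 37100 and 46862, and of 2878 genes at 50 CPM or more in CPP GFP-negative cells egr4 was the only 1 whose lowest library was under 25% of the mean of the others and was this library. The AB42 libraries were above all CPP libraries with or without it. With all libraries the log2 change was 0.93 ± 0.24 (adjusted p 0.00222), and without CPP GFP-negative replicate 1 it was 0.46 (2.62e-06). DESeq2 on all libraries gave an adjusted p of 0.141, and the 18 alternative fits that use each gene's own spread ran between 2.62e-06 and 0.141. All 4 groups share 1 estimate of the spread per gene. In GFP-positive cells egr4 had 439, 392 and 458 CPM in AB42 libraries, against 651, 575 and 732 CPM in CPP libraries. Those groups did not overlap, yet the log2 change of -0.60 ± 0.25 did not pass in the main fit (adjusted p 0.0841). It passed with the replicate block (-0.60, 0.036) and with only the 6 libraries compared (-0.56, 3.18e-07). Without CPP GFP-negative replicate 1 the change was -0.56 (2.56e-08). The highest adjusted p over the alternative fits was 0.456, by DESeq2.

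**Figure D2:**
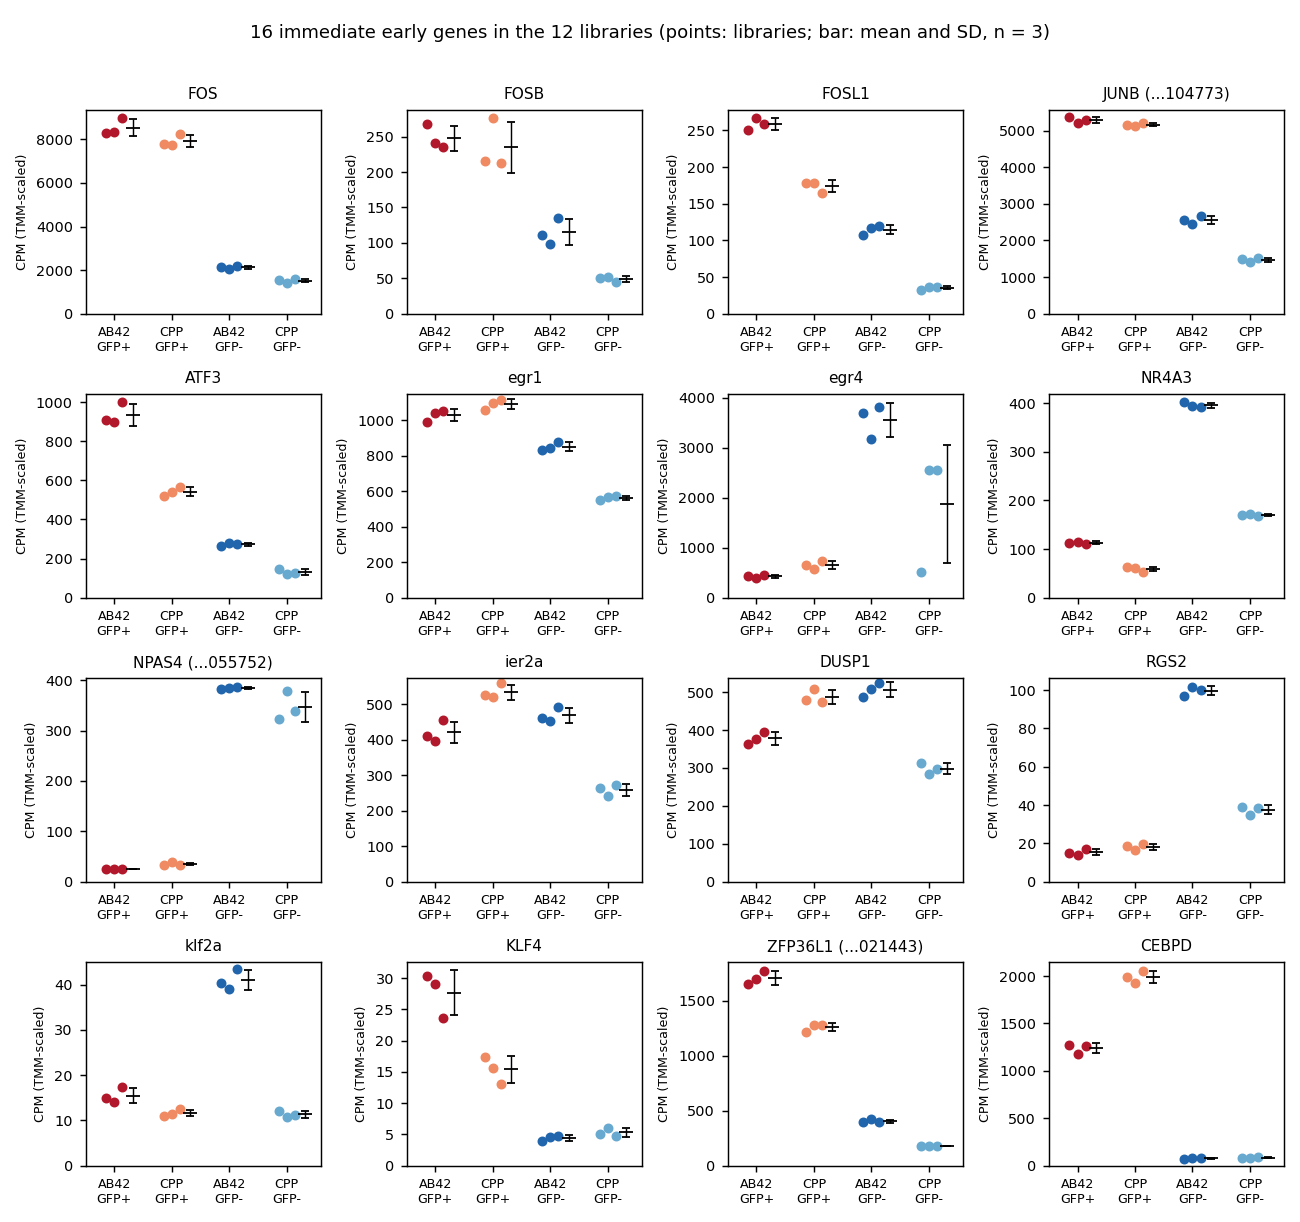
CPM (TMM-scaled, linear axes from 0) of 16 members in the 12 libraries, with AB42 left of CPP within GFP-positive (GFP+) and GFP-negative (GFP-) cells; points are libraries and the black bar is the mean with its SD (n = 3). The low point of egr4 is CPP GFP-negative replicate 1, and klf2a, FOSL1, RGS2 and NR4A3 show AB42 GFP-negative libraries far above the CPP ones.

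Whether AB42 moved these genes alike in both fractions was tested directly, as the AB42 log2 change in GFP-positive minus that in GFP-negative cells. The change was smaller (or more negative) in GFP-positive cells for 31 of 46 members and larger for 2, with 13 not past the threshold. Of all genes tested, 16.5% were past it in the negative and 5.46% in the positive direction, 21.9% in all. With library totals alone the median difference of all genes was 0.15 in place of -0.08, 10.4% of all genes were past the threshold in the negative and 16.0% in the positive direction, and the members split into 24 negative and 5 positive. Side by side, 19 members rose in each fraction (3.61% of all genes tested did), 12 rose in GFP-negative cells without passing in GFP-positive cells (15.1% of all genes), and 3, namely ier2a, DUSP1 and DUSP2, fell in GFP-positive and rose in GFP-negative cells (2.26% of all genes). A negative difference also passed for all 15 microglia and macrophage genes (median -1.94), all 10 keratin epithelium genes (median -1.465), 6 of 10 oligodendrocyte-lineage, 8 of 18 neuronal, 4 of 10 lymphocyte and neutrophil and 4 of 14 endothelial and mural genes. A positive difference passed for 3 of the neuronal genes. The part of these lists in the members' result was not tested.

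Among members past the threshold, RGS2 had the most negative difference, -1.67 ± 0.14 (adjusted p 4.24e-12). In GFP-positive cells it had 15.0, 13.9 and 16.9 CPM in AB42 libraries, against 18.5, 16.6 and 19.7 CPM in CPP libraries, which overlapped. After egr4, given below, klf2a followed with -1.45 ± 0.17 (2.32e-08), then ier2a with -1.20 ± 0.082 (3.91e-14), FOSB with -1.15 ± 0.13 (8.81e-09) and DUSP1 with -1.13 ± 0.077 (4.13e-14). klf2b, FOSL1, DUSP2 and EGR3 had differences of -1.13 ± 0.22, -1.11 ± 0.094, -1.01 ± 0.085 and -0.79 ± 0.14. For egr4 the difference was -1.53 ± 0.34 (0.000916), but -1.01 (2.68e-10) without CPP GFP-negative replicate 1 and an adjusted p of 0.109 by DESeq2, in a range of 2.68e-10 to 0.109. KLF4 went the other way. In GFP-negative cells it was low, with 3.87, 4.62 and 4.69 CPM in AB42 libraries, against 5.07, 6.05 and 4.81 CPM in CPP libraries, and the difference of its changes was 1.11 ± 0.22 (0.000241). JUND's positive difference, 0.32 ± 0.1 (0.0249), was lost without AB42 GFP-positive replicate 1 (0.0728) or CPP GFP-positive replicate 3 (0.0615), with 0.000502 as its lowest value. SIK1, maff and BTG2 rose in both fractions, and their differences of 0.00 ± 0.089, 0.08 ± 0.11 and -0.12 ± 0.061 did not pass (adjusted p 0.999, 0.666 and 0.169). The difference of maff passed with library totals alone (0.31, adjusted p 0.0379) and that of BTG2 with the replicate block (-0.12, 0.0287).

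**Figure D3:**
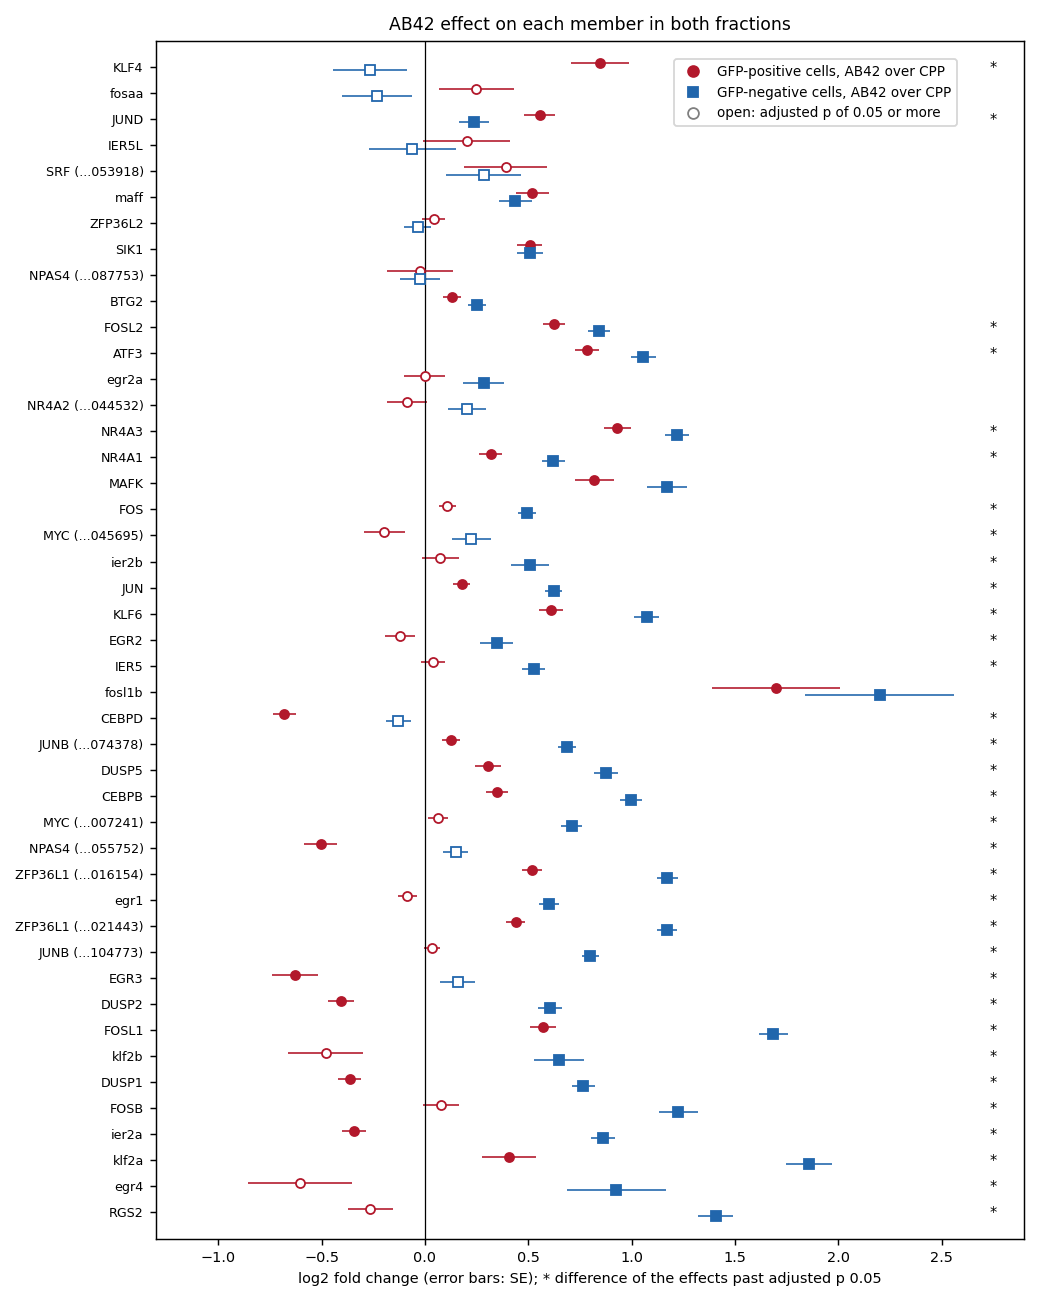
Log2 fold change of AB42 over CPP in GFP-positive cells (red circles) and GFP-negative cells (blue squares) for 45 members, ordered by the difference of the 2 changes, with SE as error bars; filled symbols are past adjusted p 0.05 and an asterisk marks a difference past it. Most blue squares lie to the right of the red circles, and KLF4 at the top is the reverse. NR4A2 (ENSDARG00000017007), at the floor in GFP-positive cells, is left out.

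The last comparisons set the GFP-positive against the GFP-negative fraction within each injection. After AB42, 27 of 46 members were higher in GFP-positive cells, 17 lower and 2 not past, and after CPP 28 were higher, 11 lower and 7 not past. The sorted fractions differed widely: 73.7% of all genes tested passed after AB42 (36.0% higher, 37.7% lower) and 73.0% after CPP (37.1% higher, 35.9% lower), so that a call between fractions is the common case. With library totals alone the median of all genes stood at -0.26 after AB42 and -0.47 after CPP, 27.0% and 22.9% of all genes were higher, 45.8% and 52.7% lower, and the members split into 22 higher and 17 lower after AB42 and 24 higher and 18 lower after CPP. After both injections 26 members were higher and 11 lower in GFP-positive cells, as were 30.8% and 30.5% of all genes tested. The AP-1 group was higher (12 of 13 after either injection), as was the RNA-decay and BTG group (4 of 4), whereas the NR4A and NPAS4 group was lower (6 of 6 after AB42 and 5 of 6 after CPP). These counts, and those of members lower above, include NR4A2 (ENSDARG00000017007), which was at the floor in GFP-positive cells. It averaged 0 CPM per kb there after AB42 and 0.044 after CPP, against 0.42 and 0.39 in GFP-negative cells. A call of higher was therefore hardly open to it. With library totals alone 9 of 13 AP-1 genes were higher after AB42 and 8 after CPP (2 lower). There fosl1b and MAFK lost the call after either injection, maff lost it after AB42 and turned lower after CPP (-0.30), and JUND lost it after CPP (-0.14). For maff the call after CPP was also lost in 9 other fits, among them DESeq2 (adjusted p 0.207), only the 6 libraries compared (0.134) and leaving out any CPP library but GFP-positive replicate 2, or AB42 GFP-negative replicate 3 (up to 0.267). The call of fosl1b after CPP was lost without CPP GFP-positive replicate 1 (0.0796), and that of MAFK after AB42 without AB42 GFP-positive replicate 1 (0.0541).

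Among members at 5 CPM or more in either fraction, CEBPD differed most. After AB42 it had 1278, 1183 and 1264 CPM in GFP-positive cells, against 69.8, 76.0 and 86.0 CPM in GFP-negative cells. After CPP it had 1989.5, 1928 and 2051 CPM in GFP-positive cells, against 84.4, 81.5 and 87.4 CPM in GFP-negative cells. The GFP-positive libraries were above by 16.1-fold after AB42 and 23.5-fold after CPP (log2 4.01 ± 0.063 and 4.56 ± 0.064). MYC (ENSDARG00000007241), a growth and cell-cycle factor, was higher by 2.93 ± 0.052 on the log2 scale after AB42 and 3.58 ± 0.054 after CPP. Its copy MYC (ENSDARG00000045695) was instead slightly lower after AB42, at -0.27 ± 0.098 (adjusted p 0.0139), and did not pass after CPP, at 0.15 ± 0.097 (0.156). ZFP36L2 was 10.5-fold higher after AB42 and 9.93-fold after CPP, and ZFP36L1 (ENSDARG00000021443) was 4.21-fold higher after AB42 and 6.99-fold after CPP. FOS had, after AB42, 8314, 8323 and 8974 CPM in GFP-positive cells, against 2126, 2070.2 and 2199 CPM in GFP-negative cells, and after CPP 7789, 7719 and 8248 CPM in GFP-positive cells, against 1536, 1429.9 and 1578 CPM in GFP-negative cells. No library of 1 fraction reached those of the other, and the log2 differences were 2.00 ± 0.043 after AB42 and 2.39 ± 0.043 after CPP. Other folds, the AB42 one first in each pair, were 4.19 and 4.56 for BTG2, 3.42 and 4.14 for ATF3, 2.25 and 4.86 for FOSL1, 2.15 and 4.78 for FOSB, and 2.06 and 3.51 for JUNB (ENSDARG00000104773). KLF4 was 6.29-fold higher after AB42 and 2.91-fold after CPP.

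On the other side stood the NPAS4 copies. NPAS4 (ENSDARG00000055752) had 24.9, 24.9 and 24.4 CPM in GFP-positive cells, against 383, 384 and 386 CPM in GFP-negative cells after AB42, and 33.7, 38.1 and 33.5 CPM in GFP-positive cells, against 323, 379 and 339 CPM in GFP-negative cells after CPP. Its GFP-positive level was 15.5-fold lower after AB42 and 9.87-fold lower after CPP, and NPAS4 (ENSDARG00000087753) was 8.78-fold lower after AB42 and 8.79-fold after CPP. All 18 neuronal genes were lower in GFP-positive cells too, with a median log2 of -3.08 after AB42 and -2.76 after CPP, and their part in the NPAS4 result was not tested. The NPAS4 and FOSL1 genes are neighbours: NPAS4 (ENSDARG00000055752) and FOSL1 lie 98735 bases apart on chromosome 14, and NPAS4 (ENSDARG00000087753) and fosl1b 40973 bases apart on chromosome 21. FOSL1 was nonetheless higher in GFP-positive cells. klf2b, EGR3, DUSP5, NR4A3, RGS2, DUSP2 and NR4A1 were lower after both injections, by 1.69-fold (NR4A1) to 8.37-fold (klf2b) after AB42 and by 1.37-fold (NR4A1) to 3.83-fold (klf2b) after CPP. So was egr4, with log2 -3.05 ± 0.26 after AB42 and -1.52 ± 0.25 after CPP (-2.05 without CPP GFP-negative replicate 1). Its fractions overlapped after CPP, where GFP-negative replicate 1 had 505 CPM against 575 to 732 CPM in the GFP-positive libraries. The activity marker egr1 was instead higher, by 0.27 after AB42 (adjusted p 3.06e-06, but 0.686 with library totals alone). After CPP its log2 difference was 0.47 to 0.98 over 18 alternative fits.

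For ier2a and DUSP1 the order of the fractions turned with the injection. ier2a was lower in GFP-positive cells after AB42 (-0.16 ± 0.058, adjusted p 0.0147) and higher after CPP (1.05 ± 0.059, 3.46e-18). DUSP1 was likewise lower after AB42 (-0.42 ± 0.055, 1.34e-08) and higher after CPP (0.71 ± 0.055, 3.99e-14). ier2a's lower call after AB42 was lost when AB42 GFP-positive replicate 1 or 2 or AB42 GFP-negative replicate 3 was left out (adjusted p 0.0677, 0.137 and 0.0794). Another 4 members, egr2a, klf2a, NR4A2 (ENSDARG00000044532) and MYC (ENSDARG00000045695), were lower in GFP-positive cells after AB42 without passing after CPP, a pattern of 5.83% of all genes tested, against 1.29% for the turn of ier2a and DUSP1. With library totals alone all 4 were lower after CPP too (log2 -0.435 for egr2a, -0.44 for klf2a, -0.565 for the NR4A2 copy and -0.33 for the MYC copy, with adjusted p 0.00025, 0.00194, 5.49e-06 and 0.00281). The AB42 call of egr2a was lost without GFP-positive replicate 1 or 2 or GFP-negative replicate 2 or 3 of AB42 (adjusted p up to 0.0969), and that of the MYC copy without AB42 GFP-positive replicate 1 (0.0702) or AB42 GFP-negative replicate 3 (0.0631). The log2 difference of klf2a was -1.41 ± 0.11 after AB42 (8.89e-14) and 0.04 ± 0.13 after CPP (0.781). These patterns restate, from the same libraries, the differences of the AB42 changes given above.

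**Figure D4:**
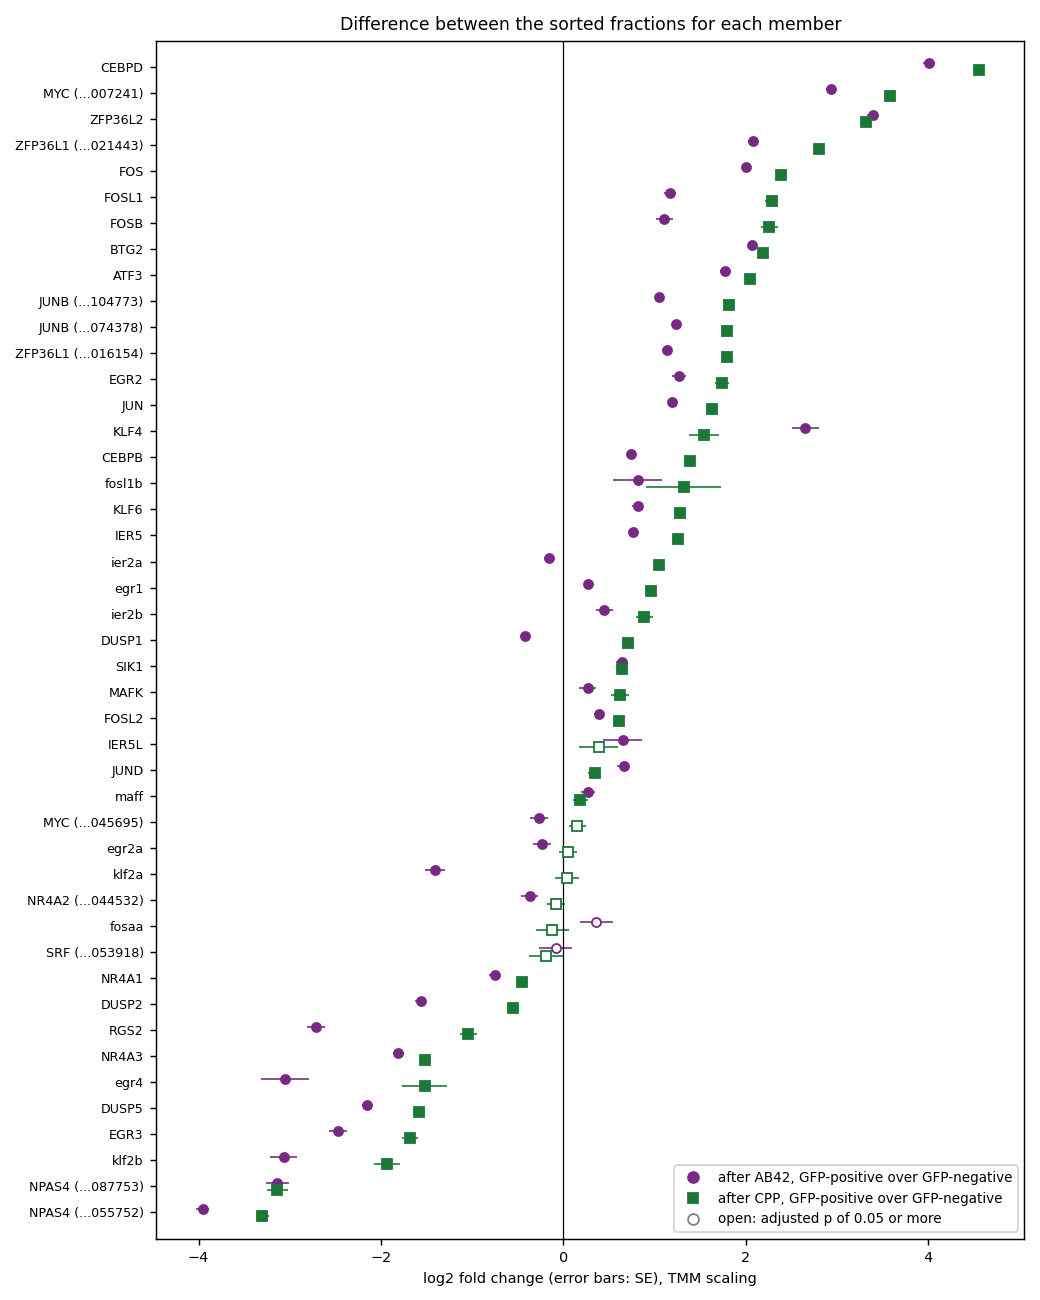
Log2 fold change of GFP-positive over GFP-negative cells after AB42 (purple circles) and after CPP (green squares) for 45 members under TMM scaling, with SE as error bars and open symbols for adjusted p of 0.05 or more. CEBPD, MYC (ENSDARG00000007241) and ZFP36L2 lie furthest right and the NPAS4 copies furthest left. With library totals alone JUND, maff, klf2a, egr2a and MYC (ENSDARG00000045695) fall below 0 after CPP. The value of IER5L after CPP also turned below 0 among the alternative fits, reaching -0.094.

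Genes around the members were read from lists of the same pathways. Of 57 upstream kinases and factors, 2 rose and 11 fell after AB42 in GFP-positive cells, and 11 rose and 20 fell in GFP-negative cells. That is 22.8% of the list in GFP-positive cells, where 18.7% of all genes passed, and 54.4% in GFP-negative cells, where 38.2% did. CAMK2A, a neuronal calcium-dependent kinase, fell in both, with log2 changes of -1.12 ± 0.12 in GFP-positive (6.09e-09) and -0.70 ± 0.075 in GFP-negative cells (1.05e-09). ppp3ca, a catalytic subunit of calcineurin, did so with -0.86 ± 0.1 in GFP-positive (3.75e-08) and -0.64 ± 0.076 in GFP-negative cells (1.05e-08). mapk11, a p38 kinase, fell in GFP-positive cells (log2 -0.99 ± 0.13, 1.67e-07). In GFP-negative cells the calcium-dependent kinase CAMK4 and its target factor MEF2D fell (log2 -0.84 ± 0.064, 1.99e-13, and -0.73 ± 0.065, 1.11e-11), and ELK3, an SRF partner, rose by 1.06 ± 0.1 (1.22e-10). These calcium-signalling genes moved in the direction of the neuronal list, whose part was not tested. Of 43 other bZIP genes tested, 13 rose and 7 fell in GFP-positive cells, and 20 rose and 8 fell in GFP-negative cells, which is 46.5% of them in GFP-positive and 65.1% in GFP-negative cells. The C/EBP factor CEBPA averaged 252 ± 6.60 CPM after AB42 and 75.7 ± 1.18 CPM after CPP in GFP-negative cells (SD, n = 3 each), a rise of 1.74 ± 0.069 (2.4e-21), and XBP1, a factor of the unfolded protein response, rose there by 0.93 ± 0.05 (1.3e-17). The clock-output bZIP genes moved in both fractions: dbpb fell, with -1.45 ± 0.098 in GFP-positive (4.07e-14) and -1.93 ± 0.09 in GFP-negative cells (1.9e-19), and nfil3-5 rose, with 1.28 ± 0.096 in GFP-positive (6.59e-13) and 1.01 ± 0.091 in GFP-negative cells (1.62e-11). nfil3-6 fell in GFP-positive cells (log2 -0.66 ± 0.06, 8.46e-11).

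Of 75 other feedback and delayed early genes tested, 22 rose and 15 fell in GFP-positive cells, and 32 rose and 16 fell in GFP-negative cells, which is 49.3% of them in GFP-positive and 64.0% in GFP-negative cells. CCN2, a matrix protein and target of YAP signalling, averaged 371 ± 8.40 CPM after AB42 and 175 ± 9.62 CPM after CPP in GFP-positive cells (SD, n = 3 each), a log2 change of 1.09 ± 0.06 (1.74e-16). HBEGF, a ligand of the EGF receptor, averaged 117 ± 7.97 CPM after AB42 and 29.5 ± 3.04 CPM after CPP in GFP-negative cells, a change of 1.98 ± 0.089 (6.3e-20). The PER1 genes, clock repressors that are also inducible early genes, fell. PER1 (ENSDARG00000056885) averaged 4.01 ± 0.418 CPM after AB42 and 26.9 ± 4.33 CPM after CPP in GFP-positive cells, with log2 changes of -2.74 ± 0.16 there (4.62e-16) and -2.34 ± 0.12 in GFP-negative cells (7.6e-18), and PER1 (ENSDARG00000012499) fell in GFP-positive cells too (log2 -1.56 ± 0.094, 2.21e-15). The labels give no hour of injection or dissection, so time of day and injection cannot be told apart, and the part of the clock genes in the members' changes was not tested.

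**Figure D5:**
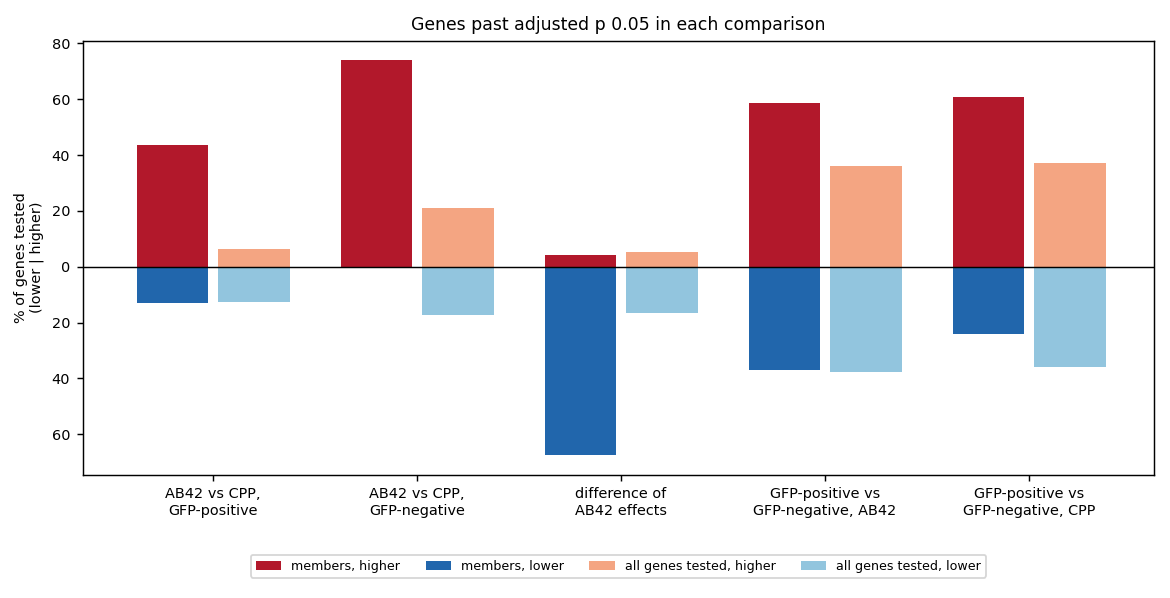
Percent of genes past adjusted p 0.05, higher above and lower below the zero line, for the 46 members (dark bars) and for all 20237 genes tested (light bars) in each comparison under TMM scaling. The members' bars exceed those of all genes most in the upward direction after AB42 in either fraction and in the downward direction for the difference of the AB42 effects. Between the fractions both sets of bars are tall.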

How the data were processed

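Whole-number counts per gene were deposited by the authors as 1 table of 31953 genes and 12 libraries, and the submitters' processing notes name featureCounts, BWA 0.7.12, GRCz10 and danRer10. Per the labels' protocols, cDNA was primed with oligo-dT, amplified with template switching and read in single ends. Depth was 9262838 to 15584769 counts per library, and all 12 columns were matched to labelled samples. Replicates of a group differed by more than sampling noise (chi-square per degree of freedom 2.1 to 4.84), so none was counted as 1 library with another. From the deposited counts, genes passing filterByExpr (20237) were tested with edgeR 4.0.16 (R 4.3.3, TMM, quasi-likelihood, 4 group means over all 12 libraries, no block, Benjamini-Hochberg, adjusted p under 0.05). On simulated data the method recovered 77.6% of 1.5-fold, 97% of 2-fold and 100% of 4-fold changes of AB42 GFP-positive cells. The changed genes were drawn only from those averaging over 5 CPM, so recovery at lower levels was not simulated. Changes under 1.5-fold were not simulated. SE is the log2 fold change over the root of F. Alternatives were library totals, DESeq2 size factors, no filter, a looser filter of 10 counts in total and a robust prior (both added after seeing the data), DESeq2 1.42.0, only the 6 libraries compared, a replicate block, and each library left out.

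The members and all lists were chosen with earlier results of these data known. Genes were named by rule, some with values per library and others with means, folds or log2 changes only: up to 10 per direction and comparison by fold, past the threshold, without overlap and at 5 CPM or more, 14 genes fixed by name, and the 3 genes of each pathway list with the smallest p in each AB42 comparison. One gene the rule names is not reported here. No sequences are printed.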

Additional observations from a re-analysis of the deposited data

Results flagged for a closer look

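The AB42 change differed between the fractions, by the test of the difference itself, for 33 of 46 members (21.9% of all genes tested passed). Values are the log2 change in GFP-positive cells minus that in GFP-negative cells, with 3 libraries in each of the 4 groups. Positive differences were measured for KLF4 (1.11) and JUND (0.32). Among AP-1 genes the negative ones were FOSB (-1.15), FOSL1 (-1.11), JUNB (ENSDARG00000104773) (-0.77), JUNB (ENSDARG00000074378) (-0.56), JUN (-0.44), FOS (-0.39), ATF3 (-0.27) and FOSL2 (-0.22). In the EGR group they were egr4 (-1.53), EGR3 (-0.79), egr1 (-0.69) and EGR2 (-0.47), with the value of egr4 resting in part on CPP GFP-negative replicate 1. Among IER genes they were ier2a (-1.20), IER5 (-0.49) and ier2b (-0.43), and in the feedback group RGS2 (-1.67), DUSP1 (-1.13), DUSP2 (-1.01) and DUSP5 (-0.57). The NR4A and NPAS4 group had NPAS4 (ENSDARG00000055752) (-0.65), NR4A1 (-0.30) and NR4A3 (-0.29), and the KLF group klf2a (-1.45), klf2b (-1.13) and KLF6 (-0.46). The remaining ones were ZFP36L1 (ENSDARG00000021443) (-0.73), ZFP36L1 (ENSDARG00000016154) (-0.66), MYC (ENSDARG00000007241) (-0.65), CEBPB (-0.65), CEBPD (-0.55) and MYC (ENSDARG00000045695) (-0.42). The differences of FOSL2, ATF3, NR4A1, NR4A3, ier2b, MYC (ENSDARG00000045695) and JUND were each lost in at least 1 fit that left out a library. By DESeq2 those of FOSL2, ATF3 and egr4 did not pass (adjusted p 0.0571, 0.0575 and 0.109). With library totals alone those of FOSL2, ATF3, NR4A1, NR4A3, ier2b, MYC (ENSDARG00000045695) and EGR2 were lost (0.104 for EGR2). No explanation was tested.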

How the results depend on the processing

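Of 46 members tested, 32 kept their direction and their side of the threshold in GFP-positive cells (AB42 against CPP) under all of up to 18 alternative fits that use each gene's own spread, 37 did in GFP-negative cells, 36 between the fractions after AB42, 35 after CPP, and 29 for the difference of the AB42 changes. With library totals in place of TMM, the count of members lower between the fractions after CPP was 18 in place of 11, that of members lower after AB42 in GFP-negative cells 2 in place of 0, and that of positive differences 5 in place of 2. By their construction library totals shift all genes together. JUND (-0.14), maff (-0.30), klf2a (-0.44), egr2a (-0.435) and MYC (ENSDARG00000045695) (-0.33) turned negative between the fractions after CPP, and the difference of FOSL2 turned to 0.011. Among the alternative fits IER5L also turned negative between the fractions after CPP, reaching -0.094. DESeq2's size factors in edgeR gave 1 member lower in GFP-negative cells, where 19.1% of all genes were lower. Without a filter on low counts the prior degrees of freedom of edgeR's fit were infinite, also with a robust prior tried after seeing the data, so its p-values ignore each gene's own spread (8.4e-99 for egr4 in GFP-negative cells) and are left out of the ranges; this was noticed from those values. A filter of 10 counts in total, chosen after seeing the data, kept 24551 genes and gave 25, 35, 44, 39 and 33 members past the threshold in GFP-positive cells, GFP-negative cells, between the fractions after AB42 and after CPP, and for the difference. In that order, 4.63%, 17.4%, 30.5%, 31.7% and 4.03% of all genes were higher (positive for the difference). Lower (or negative) were 10.4%, 13.6%, 33.8%, 31.5% and 13.8% of them. The labels give all groups the replicate numbers 1 to 3. Deviations of same-numbered libraries from their group means were at most weakly correlated (r between -0.02 and 0.09). Those of libraries with other numbers had r between -0.07 and 0.05. For replicate 3 the same-number r was positive in every pair of groups, at 0.06 to 0.09. With the replicate number as a block, 28 members passed in GFP-positive cells (26 without it). In GFP-negative cells 37 passed, 36 higher and 1 lower, against 34 without it. Between the fractions 44 and 39 passed after AB42 and CPP, and 35 for the difference (33 without it). More of all genes passed with the block too. In GFP-positive cells 7.34% of all genes were higher and 14.2% lower (6.21% and 12.5% without it). In GFP-negative cells 22.0% were higher and 18.7% lower (20.9% and 17.3% without it). Between the fractions 36.5% of all genes were higher and 38.2% lower after AB42 with the block, and 37.6% higher and 36.3% lower after CPP. Positive and negative differences passed for 6.99% and 18.2% of all genes (5.46% and 16.5% without it). Leaving out each library in turn gave 23 to 28 members in GFP-positive cells and 32 to 35 in GFP-negative cells with 0 to 1 lower. It gave 40 to 45 and 38 to 39 between the fractions after AB42 and CPP. For the difference it gave 27 to 33, 1 to 2 of them positive. Over all genes these fits called 4.57% to 8.28% higher and 9.29% to 12.2% lower in GFP-positive cells. In GFP-negative cells they called 17.5% to 20.8% higher and 14.1% to 17.4% lower. Between the fractions they called 33.7% to 35.8% higher and 35.6% to 38.0% lower after AB42. After CPP they called 32.6% to 36.7% higher and 34.1% to 38.0% lower between the fractions. Differences passed for 4.41% to 7.13% of all genes in the positive and 12.3% to 15.7% in the negative direction. The cause of these shifts was not tested.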

Other observations

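The spread between libraries was small for most members. Among members at 5 CPM or more in a group, the median coefficient of variation over 3 libraries was 3.86% in AB42 GFP-positive, 4.74% in CPP GFP-positive, 3.67% in AB42 GFP-negative and 6.02% in CPP GFP-negative cells. Over all genes at 5 CPM or more it was 8.25% in AB42 GFP-positive and 8.37% in CPP GFP-positive cells. In AB42 GFP-negative cells it was 7.18%, and in CPP GFP-negative cells 8.18%. Those genes were not matched to the members in abundance, and whether members varied less at equal abundance was not tested. The highest single value was that of egr4 in CPP GFP-negative cells, at 63.3%. Outside that group NPAS4 (ENSDARG00000087753) varied most in GFP-positive cells, with 23.7% after AB42 and 16.9% after CPP.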
